A study of Arabidopsis thaliana with 41 samples.

Results

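The Aux/IAA, GH3 and SAUR61 to SAUR68 genes of Arabidopsis thaliana, families known for a fast transcript rise after auxin supply, were followed in rosette leaves of natural accessions under mild soil drying. They were taken by locus identifier from a list of 43 loci, which held 28 Aux/IAA, 7 GH3 and 8 SAUR genes. Of these, 39 were measured among the 21164 loci of the array table: all 28 Aux/IAA genes, 5 GH3 genes and 6 SAUR genes. GH3.2, GH3.4, SAUR61 and SAUR62 were not analysed here.

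Total RNA from rosette leaves was labelled with biotin as cRNA and hybridised to 41 one-colour oligonucleotide arrays, which give 1 log2 signal per locus. Dry plants of the accessions Ag-0, Tamm-2, Omo2-3, Ull2-5, Got-22, Bil-5 and Eden-1 had their pots taken down in daily steps to about 50% of the available soil water on day 5, and wet plants of the same 7 accessions were held near 90% and handled alike. All were natural accessions grown 1 per pot in porous ceramic medium in a short-day chamber with nutrient solution, and the labels name no transgene and no agent beside the watering. The series' design text calls replicates biological. Dry Ag-0 had 2 arrays and each other of the 14 groups 3, so that 20 arrays were dry and 21 wet.

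Array medians lay between 5.66 and 5.79, and each array correlated with its group mates at 0.951 to 0.991 on average. A quality weight under 0.5 was found for 3 arrays, of which 1 was dry Tamm-2 (replicate 3), 1 dry Bil-5 (replicate 3) and 1 wet Bil-5 (replicate 2). The leaf gene RCA, encoding Rubisco activase, was at 12.95 ± 0.32 on dry arrays and 12.80 ± 0.35 on wet arrays (SD, n = 20 and 21), and CA1, a carbonic anhydrase, varied more, at 10.05 ± 1.91 and 9.91 ± 1.39. Of 7 root markers 4 were among the dimmest 25% of loci, with WER lowest (3.78 ± 0.05 on dry and 3.81 ± 0.08 on wet arrays), and PIN2, EXPA7 and CASP1 lay above them, with means over all arrays of 5.11, 4.87 and 4.86.

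Auxin is sensed by F-box receptors of the TIR1/AFB family, which bind Aux/IAA repressors through a short degron and send them to the proteasome. This frees the ARF transcription factors, which switch on early genes that include the Aux/IAA genes themselves. GH3 enzymes join auxin to amino acids and so take it out of the active pool, and SAUR proteins inhibit a group of phosphatases that hold back the plasma membrane proton pump, which favours cell expansion. In leaves the pathway is known for its part in expansion, shade growth and vein formation.

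Members differed in how far their signal stood above the floor of the scale. The lowest value of any locus on any array was 3.35, and 12 of the 39 members (30.8%) were among the 25% of loci with the lowest mean signal, under 4.4. These were IAA20, IAA30, IAA31, IAA33, IAA34, GH3.1, GH3.17, SAUR63, SAUR64, SAUR65, SAUR67 and SAUR68, so that all SAUR members but SAUR66 were dim. No member had values identical to those of another locus, although 26 loci in the table did.

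Several members are neighbours in the RefSeq gene order of assembly TAIR10.1, used here for names and neighbours alone. IAA1 and IAA14, IAA2 and IAA7, and IAA3 and IAA17 are adjacent pairs with 0 protein-coding genes between them. SAUR63, SAUR64 and SAUR65 follow each other, as do SAUR68, SAUR66 and SAUR67. That table gives AT1G29510, called SAUR67 here, the symbol SAUR68 with SAUR67 as a synonym, and the name SAUR68 is used below for AT1G29490. The SAUR genes of the cluster are close relatives, and a probe may take up RNA of more than its own gene.

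The first comparison asks what 5 days of slow drying changed in the mean over the accessions. GH3.3 had the largest change of all members and was lower in dry leaves in each of the 7 accessions, and the repressor gene IAA7 was second. Together 6 members fell and 1 rose: GH3.3, GH3.5, IAA7, IAA19, SAUR63 and SAUR66 fell, and IAA12 rose. The 7 called members were 17.9% of those measured, against 23.7% of all loci. By direction, 15.4% of members fell, against 11.5% of all loci, and 2.56% rose, against 12.2% of all loci. Among the 27 members above the dimmest 25% of loci, 5 fell (18.5%, against 14.4% of such loci) and 1 rose (3.7%, against 15.7%).

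GH3.3 (AT2G23170) encodes an enzyme that conjugates auxin to amino acids. Its log2 signal on dry arrays ran from 4.08 over a median of 4.46 to 6.35, and on wet arrays from 4.46 over a median of 5.31 to 7.01. The dry arrays sat mostly at the low end and the 2 ranges overlapped, with Eden-1 dry replicate 1 as the highest dry array. The mean was 4.61 ± 0.51 on dry arrays (SD, n = 20) and 5.57 ± 0.78 on wet arrays (SD, n = 21), a change of -0.97 ± 0.17 (SE), or 1.95-fold lower in dry leaves (limma adjusted p = 0.000126). Every dry array lay below every wet array of its own accession in Bil-5, Got-22, Omo2-3, Tamm-2 and Ag-0. In Got-22 the dry arrays gave 4.44, 5.44 and 4.53 and the wet arrays 6.71, 6.79 and 6.73. In Eden-1 the dry arrays gave 6.35, 4.92 and 4.24 and the wet arrays 4.97, 4.98 and 5.7, so that the groups overlapped there.

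GH3.5 (AT4G27260), whose enzyme acts on auxin and also on salicylic acid, ran from 5.65 over 7.32 to 8.07 on dry arrays and from 6.04 over 7.58 to 8.94 on wet arrays. The groups overlapped widely, and within accessions every dry array lay below every wet one in Got-22 alone. Its change was -0.45 ± 0.15 (SE; limma adjusted p = 0.0219), with lower dry means in 5 of 7 accessions and higher ones in Eden-1 and Ull2-5. This call ended without Ag-0 dry replicate 3 (-0.38, adjusted p = 0.0665) and without Bil-5 (0.0915), Got-22 (0.124) or Omo2-3 (0.0733), and with a replicate block within each accession (0.0928).

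The other 3 GH3 genes were not called. GH3.6, another auxin-conjugating enzyme, had a mean of 6.06 ± 0.61 on dry arrays and 6.38 ± 0.87 on wet arrays (SD, n = 20 and 21), a difference of -0.33 ± 0.20 (SE; adjusted p = 0.254). GH3.1 and GH3.17 were both dim and differed by -0.02 ± 0.03 and -0.04 ± 0.04. All 5 measured GH3 genes thus had a lower mean in dry leaves, with a median difference of -0.33, and 2 of the 5 passed the test. A lower dry mean was found for 10607 of all 21164 loci, and 11.5% of all loci fell.

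IAA7 (AT3G23050), known as AXR2 from a dominant auxin-resistant mutant, ran from 7.58 over 9.71 to 10.51 on dry arrays and from 8.06 over 10.22 to 10.90 on wet arrays. The lowest values at both water levels came from Eden-1. The mean was 9.47 ± 0.92 on dry arrays (SD, n = 20) and 10.11 ± 0.72 on wet arrays (SD, n = 21), and the change of -0.65 ± 0.14 (SE) was 1.57-fold lower in dry leaves (limma adjusted p = 0.00071). The dry mean was lower in 7 of 7 accessions, and every dry array lay below every wet array in Eden-1, Got-22, Tamm-2 and Ull2-5. Eden-1 dry arrays gave 7.78, 7.58 and 7.87, against 9.18, 8.06 and 8.92 on its wet arrays. Neither IAA7 nor GH3.3 lost its call under any of the 57 alternatives run for each.

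IAA19 (AT3G15540), known from a mutant with weak hypocotyl bending, ran from 6.03 over 6.88 to 7.85 on dry arrays and from 6.53 over 7.02 to 8.09 on wet arrays. Dry and wet arrays overlapped over most of that span. Its change was -0.31 ± 0.10 (SE; limma adjusted p = 0.025), lower in 7 of 7 accessions. Leaving out Bil-5 (adjusted p = 0.0663), Eden-1 (0.0625), Got-22 (0.146) or Ag-0 (0.0763) ended the call, and leaving out any single array did not.

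IAA12 (AT1G04550), the BODENLOS repressor that acts with ARF5 in the embryo, was the only member that rose. It ran from 5.03 over 5.33 to 6.12 on dry arrays and from 4.71 over 5.06 to 5.51 on wet arrays. The dry mean was higher in 7 of 7 accessions, and every dry array lay above every wet array in Eden-1, Tamm-2 and Ag-0. The change was 0.30 ± 0.07 (SE), or 1.23-fold (limma adjusted p = 0.00254), and it kept its call under all 57 alternatives.

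The 2 SAUR genes that fell did so by small amounts. SAUR66 (AT1G29500) ran from 4.24 over 4.77 to 5.34 on dry arrays and from 4.53 over 4.89 to 5.67 on wet arrays. Its change was -0.17 ± 0.06 (SE; limma adjusted p = 0.0415), with the dry mean lower in 4 of 7 accessions. SAUR63 (AT1G29440), which promotes the elongation of hypocotyls and stamen filaments, ran from 3.64 over 3.79 to 4.41 on dry arrays and from 3.61 over 3.91 to 5.73 on wet arrays. Most of its arrays lay near the floor, and Got-22 wet replicate 2 stood highest. Its change was -0.19 ± 0.07 (SE; adjusted p = 0.0414). Without Got-22 it was -0.07 (adjusted p = 0.396), and without Bil-5, Eden-1, Tamm-2 or Ag-0 the adjusted p was 0.106, 0.0547, 0.0517 or 0.0732. The SAUR63 call also ended without any of 23 of the 41 single arrays (up to 0.0728, without Ag-0 dry replicate 3). The SAUR66 call ended without any of 24 single arrays (up to 0.113, without Ag-0 dry replicate 3), and without Bil-5 (0.124), Got-22 (0.124), Tamm-2 (0.0582) or Ag-0 (0.231), and with a replicate block within each accession (0.117). All 6 measured SAUR genes had a lower mean in dry leaves, with a median difference of -0.11, and 5 of the 6 were dim. Of all 21164 loci, 10607 had a lower dry mean.

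Of the 28 Aux/IAA genes, 2 fell and 1 rose, with a median difference of -0.02. The 3 largest differences that missed the threshold were those of IAA17, IAA3 and IAA27. IAA17 (AXR3) had a mean of 7.26 ± 0.81 on dry and 7.70 ± 0.88 on wet arrays (SD, n = 20 and 21), with a lower dry mean in 7 of 7 accessions (-0.47 ± 0.18, adjusted p = 0.0606). It passed in 11 of 57 alternatives, with the lowest adjusted p, 0.025, without Ull2-5 wet replicate 3. IAA3 (SHY2), its neighbour, was at 6.18 ± 0.52 on dry and 5.75 ± 0.63 on wet arrays (0.41 ± 0.16, adjusted p = 0.0647), higher in 6 of 7 accessions, and passed in 7 alternatives, with a replicate block within each accession among them (0.0482). For IAA3 the 3 lowest wet arrays were Ag-0 replicate 3, Eden-1 replicate 1 and Bil-5 replicate 2, at 4.55, 4.59 and 4.6. IAA27, which binds phytochrome in vitro, differed by -0.36 ± 0.18 (adjusted p = 0.142), and passed with array weights (0.031) and without Omo2-3 wet replicate 1 (0.0249).

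In no adjacent pair of Aux/IAA genes were both genes called. IAA7 fell by 0.65, while its neighbour IAA2 differed by -0.09 ± 0.15 (adjusted p = 0.75). IAA17 and IAA3 differed by -0.47 and 0.41, and neither passed. IAA1 and IAA14 differed by 0.0050 ± 0.11 and -0.03 ± 0.10. The 6 Aux/IAA genes whose proteins lack the usual degron, IAA20 and IAA30 to IAA34, a grouping made after their values were seen, differed by between -0.06 and 0.02, and 5 of them were dim.

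**Figure D1:**
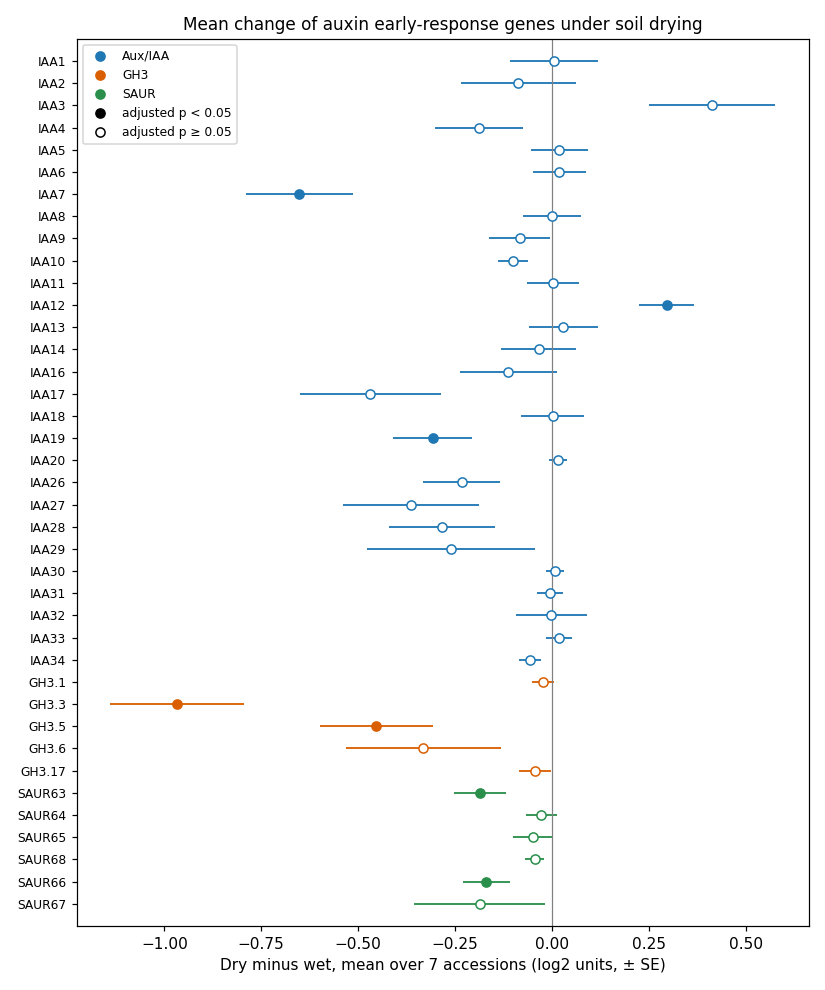
Mean change of each measured member, dry minus wet over the 7 accessions in log2 units (horizontal axis), with bars of 1 SE and 1 row per gene coloured by family. Filled points passed limma's adjusted threshold of 0.05. GH3.3 at -0.97 and IAA7 at -0.65 lie farthest left, IAA12 is the filled point to the right at 0.30, and of the dim genes SAUR63 and SAUR67 lie left of 0, at -0.19 each, SAUR67 with a long bar.

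Over all 39 members the median difference was -0.05 and the median absolute difference 0.083, beside -0.00019 and 0.077 over all loci. The dry mean was lower in all 7 accessions for 4 members, GH3.3, IAA7, IAA17 and IAA19 (10.3%, against 7.57% of all loci), and higher in all 7 for IAA12 alone (2.56%, against 9.79%). In bulk leaf RNA, fewer cells of a type and less RNA per cell cannot be told apart. Of 7 vascular markers 0 rose (against 12.2% of all loci) and 4 fell (against 11.5%). These were the phloem factor APL, by 0.34, the sucrose transporters SUC2, by 0.32, and SWEET12, by 0.72, and SWEET11. The rest of the list did not fall. HB8 differed by 0.13 ± 0.07 (limma adjusted p = 0.208). XCP1 and VND7, both dim, differed by -0.05 ± 0.05 and 0.006 ± 0.03. The mean signal of that list ran from 6.52 to 7.26 on dry arrays and from 6.80 to 7.56 on wet arrays, and its part in the falls of the auxin genes was not tested. The SWEET11 call ended without any of 17 single arrays (adjusted p up to 0.0749, without Ag-0 dry replicate 2), that of SUC2 without Omo2-3 (0.0624) or Tamm-2 (0.0708), and that of SWEET12 without Bil-5 (0.0645). Of 7 root, 6 dividing-cell and 2 leaf markers none rose or fell, and of 5 guard cell lineage markers 1 fell, FAMA by 0.15.

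**Figure D2:**
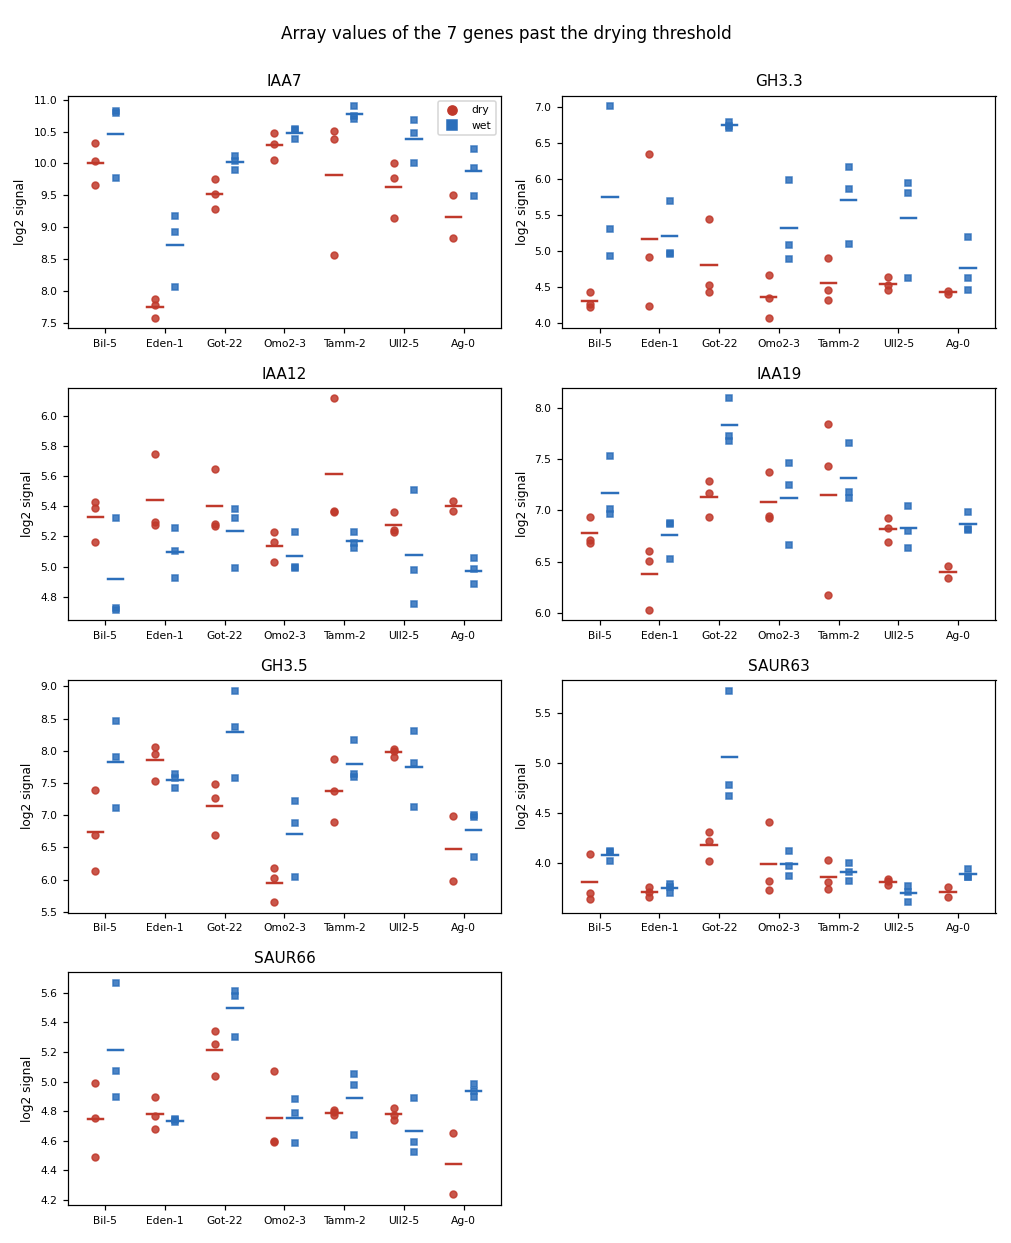
Log2 signal (vertical axes, each with its own range) of the 7 called members on every array, by accession, with dry arrays as red circles, wet arrays as blue squares and a line at each group mean. For GH3.3 the dry arrays lie below all wet arrays in 5 accessions, for SAUR63 the wet arrays of Got-22 stand above the rest, and for IAA7 the Eden-1 arrays are the lowest at both water levels.

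Of the other genes of the pathway a few rose and a few fell, and no list was tested as a whole. Over all loci 12.2% rose and 11.5% fell, which are the shares to set beside the counts below. Among 6 receptors 0 rose and 1 fell, AFB5, by 0.24 ± 0.08 (limma adjusted p = 0.0275). TIR1, the founding receptor, differed by -0.08 ± 0.08 (adjusted p = 0.525). The AFB5 call ended without Ag-0 dry replicate 3 (0.0519), Omo2-3 (0.129), Tamm-2 (0.129) or Ull2-5 (0.0505), and with a replicate block within each accession (0.0702). Among 15 ARF transcription factors 3 rose and 0 fell: ARF1 by 0.22 ± 0.06, ARF3 by 0.24 ± 0.07 and ARF18 by 0.26 ± 0.07 (adjusted p = 0.0077, 0.0126 and 0.0107). The median of the ARF list was 0.12. Leaving out Ull2-5 ended the call of ARF3 (0.0647), and leaving out Bil-5 that of ARF18 (0.0756).

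Of 11 genes of auxin synthesis 1 rose and 2 fell. TAR2, a tryptophan aminotransferase, rose by 0.34 ± 0.07 (limma adjusted p = 0.000372). YUC5 and YUC8, flavin monooxygenases of the next step, fell by 0.35 ± 0.07 and 0.22 ± 0.05 (adjusted p = 0.000253 and 0.00206), and these 3 calls held under every alternative run. Of 14 transport genes 0 rose and 1 fell, ABCB4, a membrane transporter of auxin. ABCB4 had a mean of 5.61 ± 0.55 on dry arrays (SD, n = 20) and 6.52 ± 0.56 on wet arrays (SD, n = 21), a change of -0.89 ± 0.15 (SE; adjusted p = 9e-05) that held under all 57 alternatives. The exporter PIN4 (0.22 ± 0.10, adjusted p = 0.127) and the importer LAX2 (0.19 ± 0.09, adjusted p = 0.122) did not pass.

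DAO1, which oxidises auxin, fell by 0.20 ± 0.07 (limma adjusted p = 0.0405), the 1 called gene of 3 measured for inactivation, and its call ended without any of 18 single arrays (up to 0.0739, without Ag-0 dry replicate 3). Of 13 SAUR genes outside the cluster 0 rose and 1 fell, SAUR41, by 0.24 ± 0.09 (adjusted p = 0.0434, and up to 0.11 over 22 single arrays whose removal ended it, the highest without Ag-0 dry replicate 3). The SAUR41 call also ended with a replicate block (0.052 with one for all accessions, 0.0915 within each), without the 3 arrays of low quality weight (0.0617), and without Ull2-5, Tamm-2, Omo2-3, Got-22 or Eden-1 (0.0548 to 0.125). Of 4 further GH3 genes 0 rose and 1 fell. This was GH3.12 (PBS3), an enzyme of salicylic acid synthesis and not of auxin conjugation, which fell by 0.63 ± 0.18 (adjusted p = 0.00907). Its call ended without Ull2-5 (0.0638).

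The second comparison asks whether accessions respond differently to drying. No member passed the interaction test (0 of 39 by limma, against 0.0284% of all loci), and at an unadjusted p under 0.05 there was 1 of 39, against 5.88% of all loci. That 1 was SAUR63 (limma adjusted p = 0.561), and GH3.5 (0.863) and SAUR66 (0.872) came next. The within-accession changes below are therefore values of each accession and do not show that accessions differ.

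Within single accessions 1 change passed, the fall of SAUR63 in Got-22, where 0.0378% of all loci fell. The dry arrays gave 4.01, 4.31 and 4.22 and the wet arrays 4.78, 5.73 and 4.67. All 3 dry arrays lay below all 3 wet ones, and wet replicate 2 was the highest of the 41 arrays. The change was -0.88 ± 0.17 (SE; limma adjusted p = 0.0309). Without wet replicate 2 it was -0.54 (adjusted p = 0.202), and the call also ended without dry replicate 1 (0.203) or dry replicate 3 (0.109), and with a replicate block within each accession (0.0706).

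In Got-22, 11 of the 39 members had every dry array below every wet array (28.2%, against 8.01% of all loci). They were IAA2, IAA7, IAA10, IAA16, IAA19, GH3.3, GH3.5, SAUR63, SAUR65, SAUR67 and SAUR68. The largest of these changes was that of GH3.3, -1.94 ± 0.45 (SE; adjusted p = 0.103), followed by GH3.5 at -1.15 ± 0.38 (adjusted p = 0.266), and neither passed over all loci. Members with every dry array below every wet one numbered 7 in Ag-0 (17.9%, against 14%), 4 in Bil-5 (10.3%, against 7.42%), 3 in Eden-1 (7.69%, against 7.63%), 2 in Omo2-3 (5.13%, against 9.51%), 3 in Tamm-2 (7.69%, against 8.1%) and 4 in Ull2-5 (10.3%, against 9.57%). The dry Ag-0 group has 2 arrays, which makes such an order easier to meet. The opposite order, every dry array above every wet one, was met by 2 members in Ag-0 (against 15.3%), 0 in Bil-5 (8.92%), 1 in Eden-1 (7.95%), 1 in Got-22 (6.78%), 0 in Omo2-3 (7.47%), 2 in Tamm-2 (7.08%) and 3 in Ull2-5 (10%).

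No member passed by limma within the other 6 accessions. The share of all loci that rose was 2.86% for Bil-5 with 1.33% falling, 0.0945% for Eden-1 with 0.203% falling, 0.35% for Tamm-2 with 0.907% falling, 0.529% for Ull2-5 with 0.879% falling, 0.213% for Ag-0 with 0.208% falling and 0% either way for Omo2-3. In Got-22 0.0567% rose. Unadjusted p-values under 0.05 numbered 6 members in Bil-5 (15.4%, against 18.9% of all loci), 1 in Eden-1 (2.56%, against 7.73%), 1 in Omo2-3 (2.56%, against 8.02%), 5 in Tamm-2 (12.8%, against 14.9%), 2 in Ull2-5 (5.13%, against 14.4%) and 2 in Ag-0 (5.13%, against 11.1%). In Got-22 there were 6 (15.4%, against 9.51%). GH3.3 differed by -1.44 ± 0.45 in Bil-5 (adjusted p = 0.0637), by -1.15 ± 0.45 in Tamm-2, by -0.96 ± 0.45 in Omo2-3, by -0.92 ± 0.45 in Ull2-5, by -0.33 ± 0.50 in Ag-0 and by -0.04 ± 0.45 in Eden-1. IAA7 differed by between -0.97 ± 0.36, in Eden-1, and -0.20 ± 0.36, in Omo2-3.

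**Figure D3:**
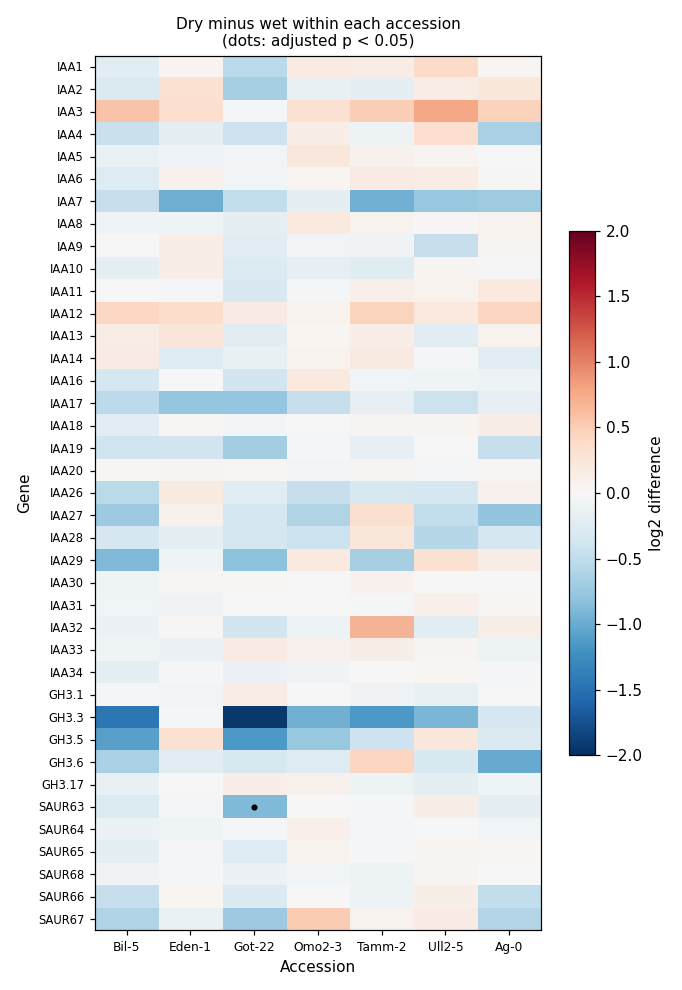
Dry minus wet log2 difference of each member (rows) within each accession (columns), on a colour scale with blue for lower and red for higher in dry plants; the dot marks an adjusted p under 0.05. GH3.3 is blue in every column but Eden-1, IAA7 is blue and IAA12 red in every column, and the dot is SAUR63 in Got-22.

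The third comparison asks which members differ between accessions whatever the watering. Of the 39 members, 18 passed the accession test (46.2%, against 31.4% of all loci). Among members above the dimmest 25% of loci 17 of 27 passed (63%, against 38.9% of such loci), and among the dim ones 1 of 12, SAUR63 (8.33%, against 8.85%). The median range of the 7 accession means was 0.627 log2 units for members and 0.345 for all loci. Members were also more variable within groups, with a median within-group SD of 0.265 against 0.194 for all loci. Accessions differ in sequence, which can lower the signal of a probe, and its part in these differences was not tested.

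The 10 members with the smallest p in the accession test were IAA7, SAUR63, GH3.5, IAA29, IAA17, SAUR66, IAA28, IAA6, IAA18 and IAA1. IAA7 led (F = 17.6, limma adjusted p = 7.41e-07), with accession means from 8.23 in Eden-1 to 10.38 in Omo2-3, and its call ended without Eden-1 (adjusted p = 0.0887). SAUR63 (adjusted p = 1.55e-05) ran from 3.73 in Eden-1 to 4.62 in Got-22, and SAUR66 (0.000266) from 4.69 in Ag-0 to 5.35 in Got-22, and without Got-22 both calls ended (0.101 and 0.338). GH3.5 (0.000134) ran from 6.33 in Omo2-3 to 7.86 in Ull2-5. Its call ended with wet arrays alone (0.0572) and held with dry arrays alone.

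IAA29, a shade-induced repressor gene, had the widest range, from 5.13 in Eden-1 to 7.40 in Tamm-2 (adjusted p = 0.000161), and IAA17 ran from 6.61 in Eden-1 to 8.55 in Got-22 (0.000256). IAA28, known from a mutant with few lateral roots, ran from 5.84 in Omo2-3 to 7.28 in Eden-1 (0.000337). IAA6 (0.00052) and IAA1 (0.001) were lowest in Eden-1, and the IAA1 call ended without that accession (0.0581). IAA18 (0.000658) was lowest in Ag-0, at 7.43, and highest in Ull2-5, at 8.17. With dry arrays alone 2 of the 39 members passed (5.13%, against 9.27% of all loci), and with wet arrays alone 12 (30.8%, against 14.7%). On dry arrays alone the calls of SAUR63 (limma adjusted p = 0.307), SAUR66 (0.0932), IAA29 (0.169) and IAA17 (0.0625) ended. So did those of IAA28 (0.202), IAA6 (0.259), IAA18 (0.224) and IAA1 (0.164). IAA7 and GH3.5 kept their calls there.

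**Figure D4:**
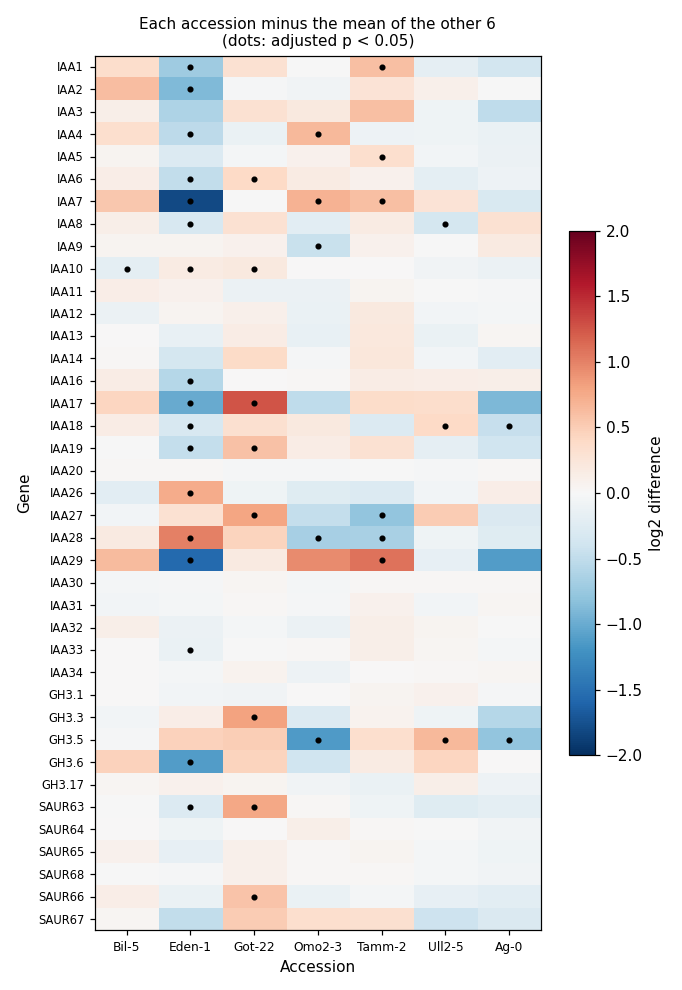
Log2 difference of each accession mean, over both water levels, from the mean of the other 6 for each member (rows), blue for lower and red for higher, with dots at an adjusted p under 0.05. The Eden-1 column holds 14 dots on blue and 3 on red, and the Got-22 column 8 dots on red and none on blue.

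In Eden-1, 14 members lay below the average of the other 6 accessions (35.9%, against 8.09% of all loci) and 3 higher (7.69%, against 10.7%). The lower ones were 12 Aux/IAA genes with GH3.6 and SAUR63, and the higher ones were IAA10, IAA26 and IAA28. The 12 were IAA1, IAA2, IAA4, IAA6, IAA7, IAA8, IAA16, IAA17, IAA18, IAA19, IAA29 and IAA33. Of the lower ones, IAA16 and IAA33 did not pass the accession test over all 7 accessions (limma adjusted p = 0.249 and 0.109). Eden-1 had the lowest mean of the 7 accessions for 20 of the 39 members (51.3%, against 23.7% of all loci). All 14 kept their direction with dry arrays alone and with wet arrays alone, where differences ran from -2 to -0.18 and from -1.66 to -0.06. The 14 were called on these same arrays, so a shared direction was likely from the start and is no separate evidence.

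IAA7 had the largest difference. Its 3 dry Eden-1 arrays and 3 wet ones ran from 7.58 over a median of 7.96 to 9.18, against 8.56 over 10.06 to 10.90 on the 35 arrays of the other accessions. The dry Eden-1 arrays and wet replicate 2 lay below the whole range of the others, and the other two wet arrays reached into its low end. The difference was -1.81 ± 0.19 (SE), or 3.5-fold lower in Eden-1 (limma adjusted p = 5.5e-08), and it held in all 50 alternatives run for it.

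IAA29 ran from 4.93 over 5.10 to 5.39 in Eden-1 and from 5.05 over 6.84 to 8.10 in the others, so that 3 of the 6 Eden-1 arrays lay below the range of the others and 3 at its low end. The difference was -1.56 ± 0.31 (SE), or 2.95-fold lower (adjusted p = 0.000422). GH3.6 ran from 4.92 over 5.27 to 5.56 in Eden-1 and from 5.43 over 6.25 to 8.20 in the others (-1.12 ± 0.28, adjusted p = 0.005). IAA17 ran from 5.91 over 6.68 to 7.01 in Eden-1 and from 6.09 over 7.60 to 9.38 in the others (-1.004 ± 0.26, adjusted p = 0.0055). IAA2 (-0.88 ± 0.21), IAA1 (-0.72 ± 0.16) and IAA6 (-0.50 ± 0.10) were also lower, and the low Eden-1 group thus took in both genes of the adjacent IAA2 and IAA7.

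The higher genes ran against this pattern. IAA28 ran from 6.77 over 7.40 to 7.504 in Eden-1 and from 5.29 over 6.30 to 7.27 in the others. Of its 6 Eden-1 arrays 4 lay above the whole range of the others, with a difference of 1.01 ± 0.19 (SE; adjusted p = 0.000319). IAA26, which binds phytochrome in vitro and is a target of a viral replicase, ran from 7.71 over 8.17 to 8.72 in Eden-1 and from 6.55 over 7.40 to 7.99 in the others (0.74 ± 0.14, adjusted p = 0.000289). IAA10 was higher by 0.16 ± 0.06 (adjusted p = 0.0362).

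The other 7 lower members and IAA10 each lost their call without some single arrays: IAA4 without 2 (up to 0.108), IAA8 3 (0.154), IAA16 2 (0.178), IAA18 20 (0.145), IAA19 2 (0.0935), IAA33 4 (0.178), SAUR63 12 (0.11) and IAA10 4 (0.128), the highest value being without an Eden-1 array in each case. Of the 14 lower members, 7 kept their call without any single array: IAA1, IAA2, IAA6, IAA7, IAA17, IAA29 and GH3.6. Among these, IAA7 was the only one that passed both on wet arrays alone and on dry arrays alone. The count of lower members was 9 without Eden-1 dry replicate 2 or without Eden-1 wet replicate 2. With fewer arrays it was 5 on wet arrays alone (against 2.73% of all loci) and 3 on dry arrays alone (against 2.92%). Mean signals of the leaf markers ran from 9.86 to 12.5 in Eden-1 and from 9.42 to 12.95 in the others, and those of the vascular markers from 6.94 to 7.26 and from 6.52 to 7.56. Of those markers 1 of 7 vascular ones was higher in Eden-1, 2 of 7 root ones and 1 of 5 guard cell ones were lower, and their part in the result was not tested.

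**Figure D5:**
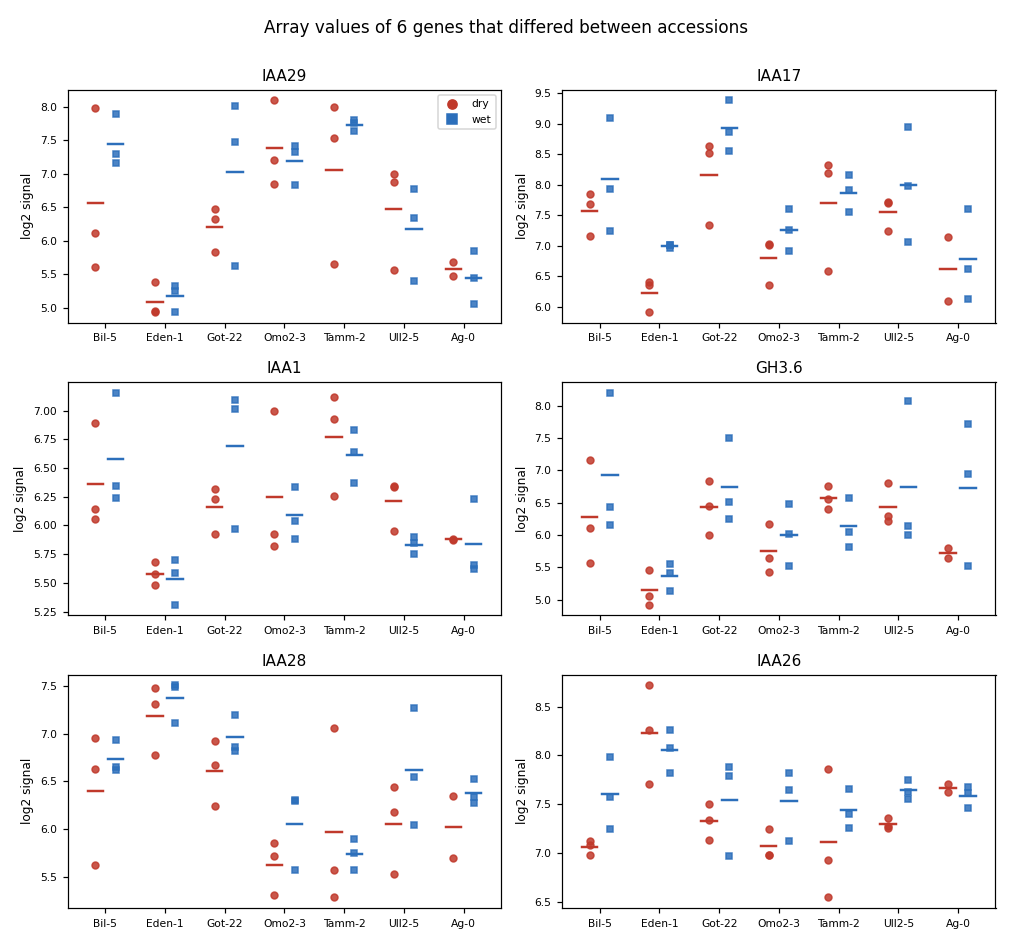
Log2 signal (vertical axes, each with its own range) of IAA29, IAA17, IAA1, GH3.6, IAA28 and IAA26 on every array by accession, with dry arrays as red circles, wet arrays as blue squares and lines at group means. Dry and wet arrays stand side by side. Over both water levels Eden-1 has the lowest mean for the first 4 genes and the highest for IAA28 and IAA26. For IAA17 the mean of Ag-0 is close (6.70 against 6.61 in Eden-1). There Ag-0 wet replicates 2 and 3 (6.13 and 6.63) lie below the wet Eden-1 arrays.

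In Got-22, 8 members were higher than the mean of the other 6 accessions (20.5%, against 3.95% of all loci) and 0 lower by limma (against 3.85%; 0 lower at an unadjusted p under 0.05). They were IAA6, IAA10, IAA17, IAA19, IAA27, GH3.3, SAUR63 and SAUR66. Got-22 had the highest mean for 15 of the 39 members (38.5%, against 13.7% of all loci). The comparisons of Eden-1 and Got-22 share arrays, since each belongs to the other 6 of its counterpart.

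IAA17 had the largest difference in Got-22. It ran from 7.34 over 8.59 to 9.38 in Got-22 and from 5.91 over 7.24 to 9.09 in the others, with Got-22 dry replicate 3 as the lowest of its own. The difference was 1.26 ± 0.26 (SE), or 2.40-fold (limma adjusted p = 0.00147). SAUR63 ran from 4.01 over 4.49 to 5.73 in Got-22 and from 3.61 over 3.81 to 4.41 in the others (0.77 ± 0.09, adjusted p = 1.11e-06). SAUR66 was higher by 0.56 ± 0.09 (adjusted p = 3.48e-05) and GH3.3 by 0.81 ± 0.24 (adjusted p = 0.0366). The GH3.3 difference was 1.37 on wet arrays alone (limma adjusted p = 0.0531) and 0.241 on dry arrays alone (0.875), and passed on neither. The calls of IAA17, IAA19, SAUR63 and SAUR66 held without any single array and on wet arrays alone. On dry arrays alone SAUR66 passed and the others did not. The differences there were 1.09 for IAA17 (limma adjusted p = 0.162), 0.363 for IAA19 (0.651) and 0.366 for SAUR63 (0.188). The GH3.3 call ended without Got-22 dry replicate 2 (0.184) or any of the 3 Got-22 wet arrays (0.071 to 0.0957). Without single arrays the calls of IAA27 (21 arrays, up to 0.142 without Got-22 wet replicate 1), IAA10 (3 arrays, up to 0.147 without Got-22 wet replicate 2) and IAA6 (2 arrays, up to 0.0524 without Got-22 wet replicate 1) ended too. The count of higher members was 5 without Got-22 dry replicate 2 or without wet replicate 2. With wet arrays alone it was 7, of which 5 were shared (against 1.7% of all loci), and with dry arrays alone 1 (against 0.775%).

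The other 5 accessions had fewer calls, and GH3.5 in Omo2-3 was the only one of them that held without any single array. That GH3.5 call ended on wet arrays alone (-0.95, limma adjusted p = 0.207). In Omo2-3 GH3.5 ran from 5.65 over 6.11 to 7.23, against 5.99 over 7.57 to 8.94 in the others (-1.13 ± 0.21, limma adjusted p = 0.000531), 1 of 3 lower members (7.69%, against 4.83% of all loci) beside IAA9 and IAA28. IAA7 (0.70 ± 0.19, adjusted p = 0.0209) was 1 of 2 higher members there (5.13%, against 3.18%), beside IAA4. The IAA7 call ended without Omo2-3 dry replicate 1 (0.0547), dry replicate 3 (0.0789) or wet replicate 3 (0.0526). The mean of the other 6 takes in Eden-1, where IAA7 was at 8.23. Apart from Eden-1, accession means of IAA7 lay between 9.52 in Ag-0 and 10.38 in Omo2-3, with Tamm-2 at 10.3. The part of Eden-1 in the higher IAA7 of Omo2-3 and of Tamm-2 was not tested. In Tamm-2 4 members were higher (10.3%, against 3.58%), namely IAA1, IAA5, IAA7 and IAA29, and 2 were lower (5.13%, against 4.25%), IAA27 and IAA28. IAA29 had the largest upward difference there, 1.08 ± 0.31 (adjusted p = 0.0244). Any of 5 of the 6 Tamm-2 arrays ended that call when left out (up to 0.134, without dry replicate 2). Its mean in Tamm-2, 7.40, was close to 7.28 in Omo2-3 and 7.01 in Bil-5, with Ag-0 at 5.51 and Eden-1 at 5.13. The part of these low accessions in the IAA29 difference was not tested. IAA27 (-0.79 ± 0.25, adjusted p = 0.0451) was no longer called without any of 25 single arrays (up to 0.161, without Tamm-2 dry replicate 2). The IAA7 call in Tamm-2 ended without any of 30 single arrays (up to 0.248) and with a replicate block (0.0538). It also ended after quantile normalization (0.0525) and after median centring (0.053). The IAA5 call in Tamm-2 ended after median centring (0.0558). IAA5 and IAA9 did not pass the accession test over all 7 accessions (limma adjusted p = 0.0766 and 0.0683).

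In Ull2-5 2 members were higher (5.13%, against 4.79%), GH3.5 by 0.66 ± 0.21 (adjusted p = 0.0443) and IAA18, and 1 was lower (2.56%, against 3.2%), IAA8 by 0.35 ± 0.11 (adjusted p = 0.0344). GH3.5 lost that call without any of 17 single arrays (up to 0.197, without Ull2-5 wet replicate 2), and IAA8 without any of 5 Ull2-5 arrays (up to 0.152, without dry replicate 2). In Ag-0 2 were lower (5.13%, against 1.66%), IAA18 and GH3.5, the second by 0.79 ± 0.23 (adjusted p = 0.0452) and with a call that ended without any of 25 single arrays (up to 0.522, without Ag-0 dry replicate 3). In Ag-0 0 were higher (against 1.86%; 1 at an unadjusted p under 0.05). In Bil-5 0 were higher (against 2.24%; 5 at an unadjusted p under 0.05) and 1 was lower (2.56%, against 2.26%), IAA10 by 0.19 ± 0.06 (adjusted p = 0.045), which ended without any of 24 single arrays (up to 0.163, without Bil-5 dry replicate 1). GH3.5 was thus called in 3 of the 7 accessions, lower in Omo2-3 and Ag-0 and higher in Ull2-5.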

How the data were processed

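Rosette leaf RNA of 7 accessions at 2 soil water levels was measured on 41 arrays. The authors deposited 1 log2 value per locus and array; the unit was inferred from the values, which span 3.35 to 14.3. The submitters' processing notes name RMA and MAS5 with no role or version. Probe filter and genome build: not given in the sources used here. The table held 0 columns of other samples. Precision is limited by how many arrays there are, since array signals carry no counts.

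No further normalization was applied. In R 4.3.3, limma 3.58.1 (lmFit, then eBayes) fitted a mean for each of 14 groups to all 21164 loci, which left 27 residual degrees of freedom beside 2.06 from the prior. Contrasts were dry minus wet as the mean over 7 accessions and within each, moderated F tests of the interaction and of the accession means, and each accession minus the mean of the other 6. Two-sided p-values underwent Benjamini-Hochberg adjustment across the 21164 loci, and 0.05 was the threshold. Errors marked SE come from that model, while an SD across dry or across wet arrays also contains accession differences. The fit was tested on simulated data. Figures were drawn with matplotlib 3.10.9 in Python 3.11.15. All 39 measured members matched the RefSeq table.

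Members, gene lists and tests were chosen with earlier results of these data known. Named were all called members, the 3 next largest drying changes, the 10 smallest accession and 3 smallest interaction p-values, the largest difference in each direction per accession, and up to 3 genes per pathway or marker list, with IAA7, GH3.3, GH3.5 and SAUR63 in any case. TIR1, SWEET11, HB8, XCP1 and VND7 were chosen after their values were seen. So were the genes of single accessions beyond the largest, the adjacent pairs and the arrays described as high or low.

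Alternatives were quantile normalization, median centring, a filter on the dimmest 25% of loci, a trend and robust prior, array weights, a replicate block (1 for all accessions, or within each), an additive model, fits of subsets, and leaving out arrays or accessions.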

Additional observations from a re-analysis of the deposited data

Results flagged for a closer look

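In 2 members every dry array lay above every wet array in 1 accession and below every wet array in another (5.13%, against 8.01% of all loci). SAUR63 did so with a dry minus wet log2 difference of 0.117 in Ull2-5, against -0.878 in Got-22 and -0.176 in Ag-0. IAA32 did so with 0.677 in Tamm-2 and -0.105 in Omo2-3. The difference between these pairs of accessions was not tested by itself; limma's interaction test over all 7 accessions gave adjusted p = 0.561 for SAUR63 and 0.932 for IAA32. The Tamm-2 dry arrays of IAA32 were 4.79, 4.76 and 5.82, the highest being replicate 3, an array with a quality weight of 0.327.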

How the results depend on the processing

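No result changed direction under any alternative run. The count of members that fell was 6 and became 2 without Bil-5 and 2 without Got-22 (4 to 7 without single arrays), and the count that rose was 1 and became 2 with the dimmest 25% of loci left out 2 in the additive model and 2 with a replicate block within each accession (1 to 2 without single arrays). The count of interaction calls was 0 in every setting, those without single arrays included. The 18 accession calls became 2 on dry arrays alone (16 to 20 without single arrays). The 1 within-accession call became 0 after median centring, in a fit of each accession alone and with the replicate block within each accession. The count became 2 with the replicate block, 2 without the 3 arrays of low quality weight and 5 with array weights. Without single arrays it was 0 to 3. The 2 with the replicate block were SAUR63 in Got-22 and GH3.3 in Bil-5. With that block 0.0898% of all loci were called in Got-22 and 4.76% in Bil-5, against 0.0945% and 4.2% without it. The counts without those 3 arrays and with array weights have no all-loci share beside them, and a general gain in calls was not tested. The 14 lower members of Eden-1 became 5 on wet arrays alone and 3 on dry arrays alone (9 to 16 without single arrays). The 8 higher members of Got-22 became 14 with array weights (against 7.7% of all loci, and 3.95% unweighted) and 1 on dry arrays alone (against 0.775%) (5 to 10 without single arrays). For these last 2 counts all alternatives but wet arrays alone were chosen after seeing the data. In the settings with fewer arrays or loci, the number of samples or tests also changed; otherwise the cause was not tested.

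Over 20 same-numbered dry and wet pairs the deviations from group means correlated between -0.493 and 0.544, with 10 over 0.1, so that the numbers did not pair the arrays in every accession. All same-numbered pairs were over 0.1 in Eden-1 (0.117 to 0.544), Ull2-5 (0.147 to 0.37) and Ag-0 (0.17 and 0.531). A block within each accession, chosen after seeing the data, gave 4 falling and 2 rising members, with no all-loci share to set beside them. No member was called by limma within Eden-1, Ull2-5 or Ag-0 with that block or without it. The replicate block common to all accessions gave 7 falling (against 11.5% of all loci), 1 rising and 18 accession calls (6790 over all loci). IAA17 passed with it (-0.44, limma adjusted p = 0.0403). SAUR63 lost its drying call after median centring (0.054) and SAUR66 after quantile normalization (0.0524), and both in the additive model (0.0896 and 0.0805). Array weights gave 25 accession calls among members and 10129 over all loci, against 6635 in the unweighted fit. Precision is bounded by 2 or 3 arrays per group, and effects of the scale's floor, probe sequence and cross-hybridisation were not tested.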

Other observations

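Single arrays stood apart from their group for several members, picked after their values were seen and with no test. On Omo2-3 dry replicate 3, SAUR67 stood at 6.52, against 4.11 and 4.13 on the other two arrays of that group. On the same array IAA1 was at 6.997 (against 5.82 and 5.93), IAA3 at 7.08 (against 6.01 and 5.72), IAA29 at 8.10 (against 7.21 and 6.84) and SAUR63 at 4.41 (against 3.81 and 3.73). On Got-22 wet replicate 2, SAUR67 was at 5.83 (against 4.66 and 5), SAUR63 at 5.73 (against 4.78 and 4.67) and IAA2 at 9.52 (against 8.33 and 8.51). For IAA29 in that group replicate 1 (5.62) lay farther from the rest than replicates 2 and 3 (8.01 and 7.47) from each other. On Tamm-2 dry replicate 2, SAUR67 was at 5.74 (against 4.28 and 4.03). For IAA3 in that group replicate 1 (5.96) lay below replicates 2 and 3 (7.32 and 6.85).

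Dry Tamm-2 held an array apart in the other direction. On replicate 3, IAA7 was at 8.56 (against 10.39 and 10.51), IAA29 at 5.65 (against 7.54 and 7.996) and IAA19 at 6.18 (against 7.43 and 7.85), while IAA12 was at 6.12 (against 5.37 and 5.36) and IAA28 at 7.06 (against 5.57 and 5.29). That array had a quality weight of 0.327, and without any single array, this one included, the drying changes were -0.70 to -0.56 for IAA7, -0.36 to -0.24 for IAA19 and 0.26 to 0.33 for IAA12, all with a limma adjusted p under 0.05.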
